A study of Bos taurus with 11 samples.

Results

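The let-7 family with miR-98 made up 10 of the 796 miRNAs in the count table. Its members were the rows named bta-let-7a-5p, bta-let-7b, bta-let-7c, bta-let-7d, bta-let-7e, bta-let-7f, bta-let-7g, bta-let-7i, bta-miR-98 and bta-miR-3596, and all 10 were present. The counts of bta-miR-3596 equalled those of bta-let-7b in every library, and in the RefSeq annotation the gene MIR3596 overlaps MIRLET7B. Both rows were therefore treated as 1 member, called let-7b here, which left 9 distinct members. All 9 passed the filter of at least 10 counts summed over the libraries, and the smallest count of any member in any library was 1021 reads.

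The let-7 miRNAs are among the most conserved of animals and were first known as timers of development in worms. They share the bases at the start of the miRNA that pair with target mRNAs, as does miR-98, and they repress growth genes such as RAS, MYC and HMGA2. The LIN28 proteins bind let-7 precursors in immature cells and block their maturation, so let-7 is known as a miRNA family of differentiated cells, also in the mammary epithelium.

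Small RNA was sequenced from mammary gland biopsies of lactating cows of 2 dairy breeds, 5 Holstein and 6 Montbéliarde, with 1 library per cow. Breed was the only factor in the labels, and no treatment, time point or age separates the cows there. Between 6087865 and 16808976 reads were counted on miRNAs per library. Levels are normalized read counts, which are counts divided by the DESeq2 size factor of the library. A read covers a whole mature miRNA, so counts do not grow with its length, and levels of members were compared without a length scale. How well the adaptors ligate to each sequence was not measured. Members differ from each other at few bases, and how reads that match more than 1 member were counted is not given in the sources used here, so the level of a single member is uncertain to that extent.

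Markers of mammary epithelium were present in every library, with 5 of 5 listed miRNAs (miR-200a, miR-200b, miR-200c, miR-141 and miR-429) in the table. Their summed share of the counted reads was 3.43 to 4.64% in the Holstein and 1.41 to 4.44% in the Montbéliarde libraries. Most of it was miR-141, with a mean of 243915 normalized read counts, beside 42590 for the next, miR-200c. All 6 of 6 listed stromal miRNAs, among them miR-143 and miR-145, were in the table. The 6 together made up 16.0 to 21.4% of the Holstein and 22.0 to 33.9% of the Montbéliarde reads. Nearly all of this was miR-143, with a mean of 2339520 normalized read counts, beside 7991 for the next, miR-199a-3p. miR-145 had 2899 to 4785 normalized read counts in Holstein and 1600 to 4470 in Montbéliarde. For each listed stromal miRNA the normalized read counts of the breeds overlapped. Leukocyte miRNAs (5 of 5 in the table) took 0.186 to 0.345%, endothelial miRNAs (2 of 2) 2.23 to 3.26% and erythroid miRNAs (3 of 3) 0.242 to 0.526% over all libraries. Skeletal muscle miRNAs (4 of 5, with no row for miR-206) took 0.00609 to 0.0172%. Library tags run up to CNLX9 for Holstein and start at CNLX13 for Montbéliarde. Should they mark when a library was prepared, on which the labels say nothing, such an effect and breed cannot be told apart.

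The 9 members together took 5.06% ± 0.891 (SD, n = 11) of the counted reads. In the Holstein libraries the family share was 5.54% in CNLX1, 3.67% in CNLX3, 4.71% in CNLX5, 5.51% in CNLX7 and 5.73% in CNLX9. In the Montbéliarde libraries it ran from 4.09% in CNLX15 over a median of 4.77% to 6.83% in CNLX19. The lowest share of all was thus in a Holstein cow and the highest in a Montbéliarde cow, and the ranges of the breeds overlapped. The Holstein mean was 5.03% ± 0.858 (SD, n = 5). The Montbéliarde mean was 5.09% ± 0.998 (SD, n = 6), and this difference was smaller than the SD within either breed. Counting error played little part at this depth: the Wilson 95% confidence interval of the share in CNLX13, the library with fewest reads, was 4.41 to 4.44%. Such intervals cover counting error only, since copies made by PCR cannot be told from separate molecules here. Counting bta-miR-3596 as a further member would raise the mean share to 5.53%.

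**Figure D1:**
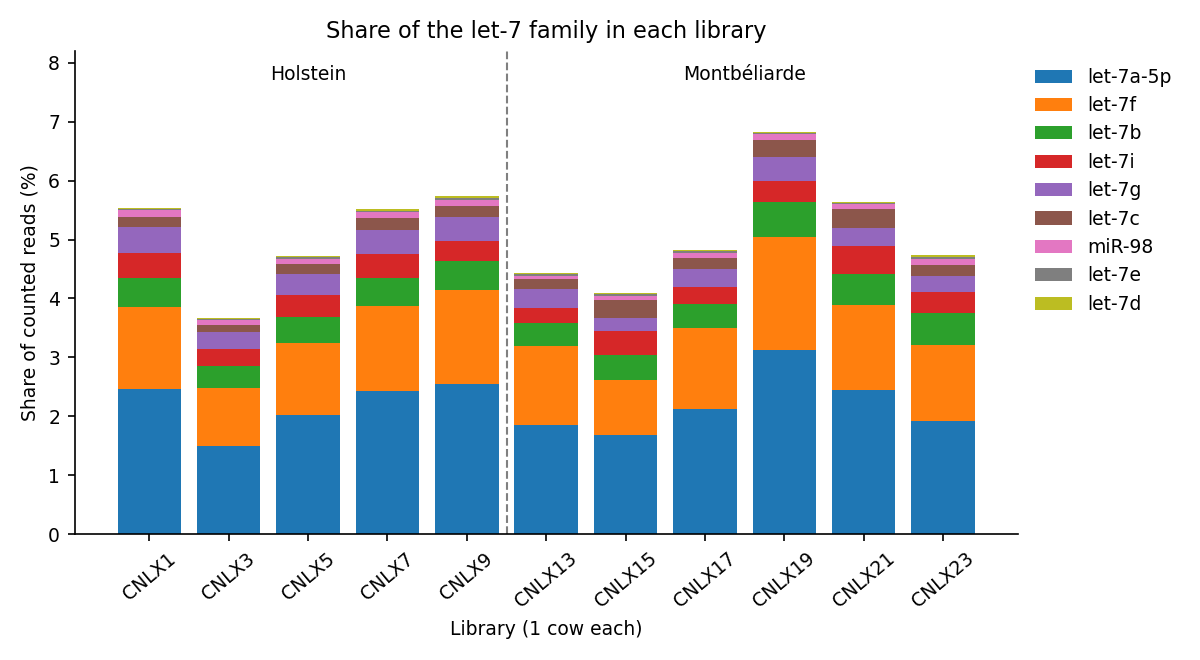
Share of counted reads (%) taken by each of the 9 distinct members, stacked, in each of the 11 libraries (1 cow each). The whole bar is the family share, from 3.67% in CNLX3 to 6.83% in CNLX19, and let-7a-5p and let-7f form most of every bar.

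let-7a, which is encoded by 3 genes in the RefSeq annotation, was the most abundant member. In Holstein its normalized read count was 233012 in CNLX1, 160913 in CNLX3, 204729 in CNLX5, 215148 in CNLX7 and 246497 in CNLX9. In Montbéliarde it ranged from 159223 in CNLX23 over a median of 212372 to 275190 in CNLX19. The breeds overlapped over nearly the whole range, and the means were 212060 ± 32803 (SD, n = 5) and 213648 ± 41646 (SD, n = 6). With a mean of 212926 over all libraries, bta-let-7a-5p ranked 12 among all miRNAs of the table.

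let-7f, encoded by 2 genes, followed at rank 14. Its normalized read count was 132907, 106417, 124768, 127558 and 154488 in CNLX1, CNLX3, CNLX5, CNLX7 and CNLX9. The Montbéliarde values ranged from 106028 in CNLX23 over a median of 138716 to 168754 in CNLX19. CNLX3 and CNLX23 were thus the lowest libraries of their breeds for both leading members, and CNLX19 was the highest of all. let-7a and let-7f together supplied 69.9% ± 2.80 (SD, n = 11) of the reads of the family, between 64.2 and 73.9% in single libraries.

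let-7b, whose gene lies beside 1 of the let-7a genes, came next, at rank 23 in the table. Its Holstein normalized read counts were 45105, 40008, 43532, 42459 and 48089 in the same order of libraries. The Montbéliarde counts ranged from 38873 in CNLX13 over a median of 46235 to 51106 in CNLX19. The highest library held only 1.31 times the lowest, the narrowest span of any member. Of the 25 most abundant rows of the table, 4 belonged to the family. They were let-7a, let-7f, let-7b and its copy bta-miR-3596, and thus 3 distinct members.

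let-7i, from a gene with no neighbouring miRNA gene, and let-7g, from a gene within the span of the protein-coding gene WDR82, had similar levels. let-7i averaged 35211 ± 6522 (SD, n = 11) and let-7g 33096 ± 5557 (SD, n = 11) normalized read counts. let-7i was the higher in 4 of the 11 libraries and let-7g in the other 7, so these neighbours in the order did not differ beyond their spread. For let-7i, 2 libraries stood above all Holstein values of 30692 to 40184, namely CNLX15 with 45964 and CNLX21 with 44995, while the lowest was CNLX13 with 26203. For let-7g the Holstein values were 42077, 31896, 35488, 35566 and 39922, and the Montbéliarde values ran from 22999 in CNLX23 over a median of 31300 to 34863 in CNLX19. Of the Montbéliarde cows, 3 had less let-7g than any Holstein cow and the other 3 lay within the lower part of the Holstein range.

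let-7c, which lies in the genome next to miR-99a and a miR-125b gene, was the most uneven member. In Holstein its normalized read count was 17119 in CNLX1, 13298 in CNLX3, 17617 in CNLX5, 18386 in CNLX7 and 18533 in CNLX9. In Montbéliarde it was 16153 in CNLX13, 35593 in CNLX15, 20389 in CNLX17, 25476 in CNLX19, 31731 in CNLX21 and 16069 in CNLX23. Thus 4 Montbéliarde cows exceeded every Holstein cow, and CNLX13 and CNLX23 lay below 4 of the 5 Holstein cows. let-7g exceeded let-7c in 9 libraries, and the order was turned in CNLX15 and CNLX21.

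The remaining members were miR-98, let-7e and let-7d. miR-98, whose gene lies with 1 of the let-7f genes inside the span of HUWE1, had 7889 to 9712 normalized read counts in Holstein and 5718 to 9964 in Montbéliarde, with medians of 9034 and 7762. let-7e, the neighbour of miR-99b and miR-125a, had 2184 to 3560 counts in Holstein and 2149 to 3740 in Montbéliarde, with medians of 2513 and 2972. let-7d, from the gene cluster that also encodes a let-7a and a let-7f, was the least abundant member, with 1618 to 2210 counts in Holstein and 1541 to 1836 in Montbéliarde. From let-7a to let-7d the mean level spanned a factor of 120. Between neighbours in the order of means, 6 of 8 pairs stood in the same order in all 11 libraries. Ranges over libraries did not overlap in 3 of the 8 pairs, which were let-7f above let-7b, let-7c above miR-98, and miR-98 above let-7e.

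**Figure D2:**
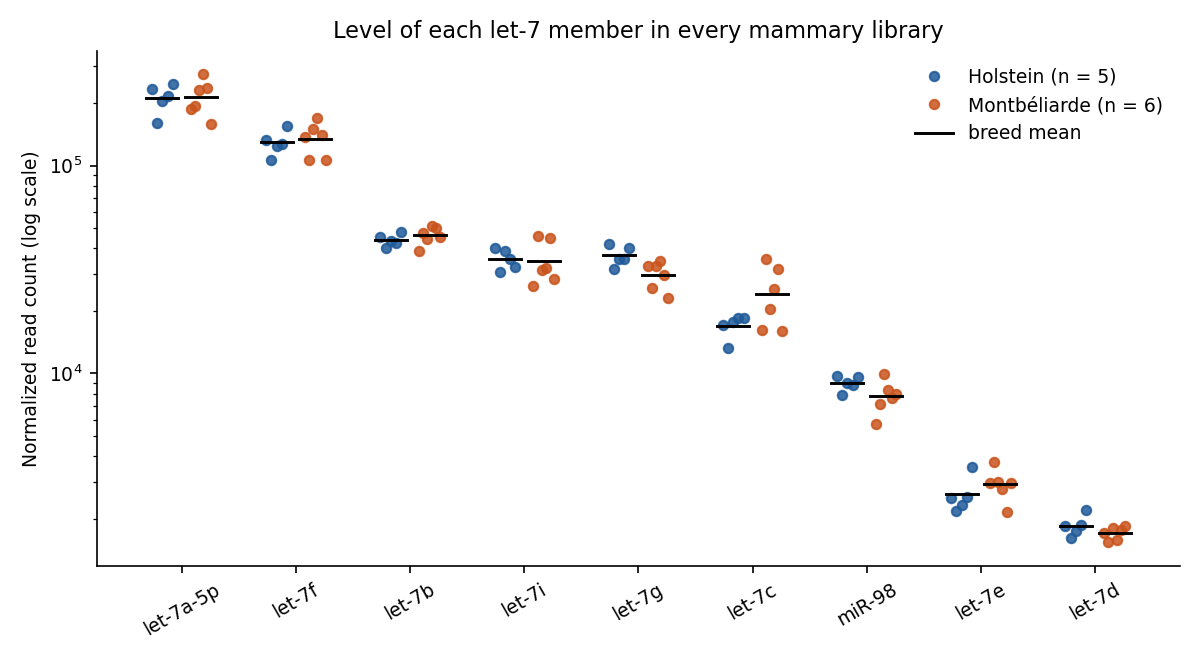
Normalized read count (log scale) of each distinct member in every library, with Holstein (n = 5) and Montbéliarde (n = 6) side by side and a bar at each breed mean. The breeds overlap for all 9 members, and the Montbéliarde points spread most for let-7c, from 16069 to 35593.

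The comparison of the breeds asked whether any member differed between Holstein and Montbéliarde mammary tissue. In edgeR (quasi-likelihood F test, Benjamini-Hochberg adjustment over the 550 miRNAs tested), 0 of the 9 members were called at an adjusted p of at most 0.05, and over all miRNAs tested the share called was 0.364% (2 miRNAs). DESeq2 also called 0 members, against 3.97% of the 504 miRNAs to which it gave an adjusted p, and limma with voom called 0 members, against 0.364% of all miRNAs tested. The exact permutation test between the breeds called 0 of all 550 miRNAs, so it tells nothing about the members at that limit. At an unadjusted p of at most 0.05, edgeR gave 1 of 9 members (11.1%), let-7c, against 14.2% of all miRNAs tested. With DESeq2 there were 2 of 9 (22.2%), let-7c and let-7g, against 11.3% of all miRNAs tested. With limma there were 0 of 9, against 12.7%, and with the exact permutation test 1 of 9 (11.1%), let-7g, against 13.5%. In edgeR there were also 2 of 9 with DESeq2 size factors (14.9% of all) and without the filter on low counts (11.4% of all), and 0 of 9 when CNLX3 (73 of 544 miRNAs tested) or CNLX9 (60 of 545) was left out. For 0 of the 9 members did the normalized read counts of the breeds not overlap, while this held for 2.0% of all miRNAs tested. The share of members at an unadjusted p of at most 0.05 thus lay below that of the table in some of these settings and above it in others.

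let-7c had the largest difference of the members, with a log2 fold change (Montbéliarde over Holstein) of 0.51 (SE 0.22, edgeR adjusted p = 0.325), or 1.42-fold with a 95% interval of 1.02 to 1.98. let-7g was next, at −0.31 (SE 0.15, edgeR adjusted p = 0.355), or 0.806-fold with an interval of 0.643 to 1.01. miR-98 followed at −0.22 (SE 0.15, edgeR adjusted p = 0.500). The other 6 log2 fold changes lay between −0.13 for let-7d and 0.15 for let-7e. The leading members differed least: let-7a by 0.01 (SE 0.18), let-7f by 0.06 (SE 0.17), let-7b by 0.07 (SE 0.13) and let-7i by −0.03 (SE 0.18). Adjusted p-values of the 9 members in edgeR ran from 0.325 to 0.988.

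The intervals of the main edgeR fit limit how large a breed difference could be in that fit. All 9 lay within a 2-fold change in either direction, and 7 lay within 1.5-fold, the exceptions being let-7c and let-7g. For let-7c the upper end, 1.98-fold, was close to the 2-fold bound. Its log2 fold change was larger in some alternatives, up to 0.64 (SE 0.24) with the library total as a covariate. The bound was not examined in the alternatives. The log2 fold change was above 0 in 5 members and below 0 in 4, with a median of 0.01, beside 0.03 over all miRNAs tested. The median size of the change, without its sign, was 0.13 in the members, 0.27 in the 104 other miRNAs with a mean of at least 1000 normalized read counts, and 0.33 in all miRNAs tested.

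**Figure D3:**
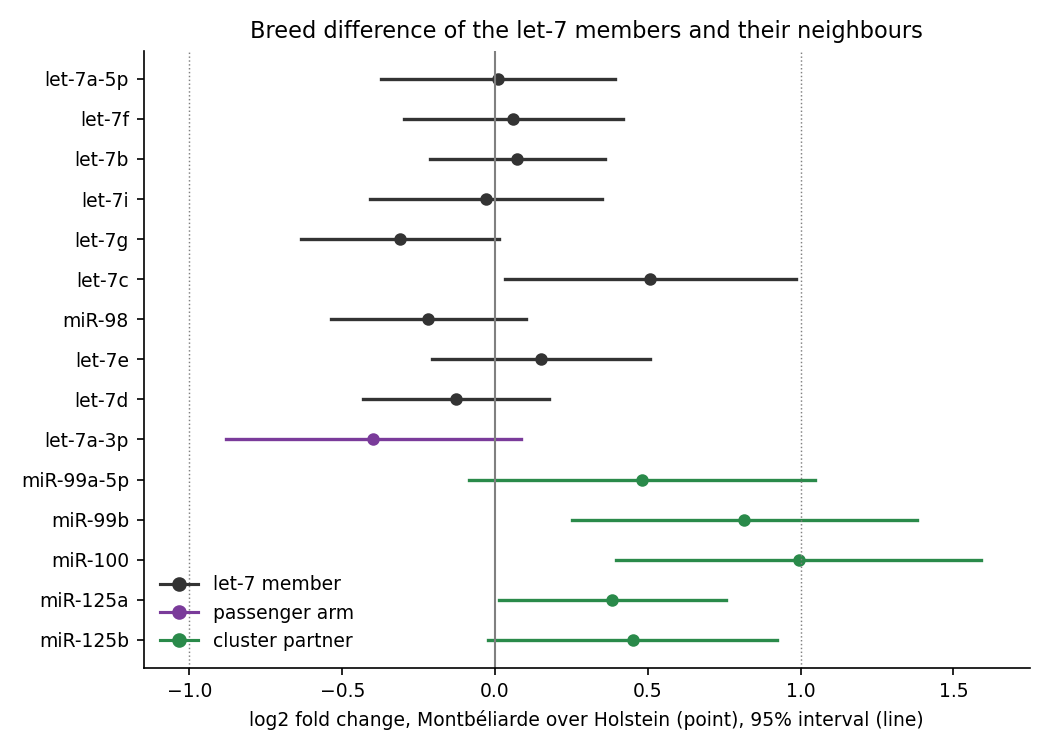
log2 fold change, Montbéliarde over Holstein (point), with its 95% interval (line) from edgeR, for the 9 members, the passenger arm let-7a-3p and 5 miRNAs encoded beside let-7 genes. The dotted lines mark a 2-fold change, within which all 9 member intervals lie, while the intervals of miR-99a-5p, miR-99b and miR-100 extend past it.

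Levels of the family varied little between cows of 1 breed. The pooled within-breed SD of the log2 level had a median of 0.24 over the members, from 0.13 in let-7b to 0.39 in let-7c. Over the 104 miRNAs of like level outside the family the median was 0.35, and over all miRNAs tested it was 0.55. The SD of 8 of the 9 members lay below the median at like level, and let-7c was the exception. For let-7c the SD of the log2 level was 0.49 among the Montbéliarde and 0.20 among the Holstein cows. Within Holstein, CNLX3 had the lowest normalized read count for all 9 members.

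Ratios within a library do not depend on the scaling, and they were formed for the 36 pairs of distinct members. The SD of the log2 ratio over the 11 libraries had a median of 0.29. Over the 6328 pairs of miRNAs with a mean of at least 1000 normalized read counts, members included, it was 0.50. The steadiest pair was let-7a with let-7f (SD 0.11). It ran from 1.36 reads of let-7a per read of let-7f in CNLX13 up to 1.80 in CNLX15. The least steady was let-7g with let-7c, at 0.727 in CNLX15 up to 2.46 in CNLX1 (SD 0.56). let-7c was a partner in 6 of the 8 pairs of highest SD. Pairs without let-7c had SDs of 0.11 to 0.40, and pairs with it 0.32 to 0.56.

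**Figure D4:**
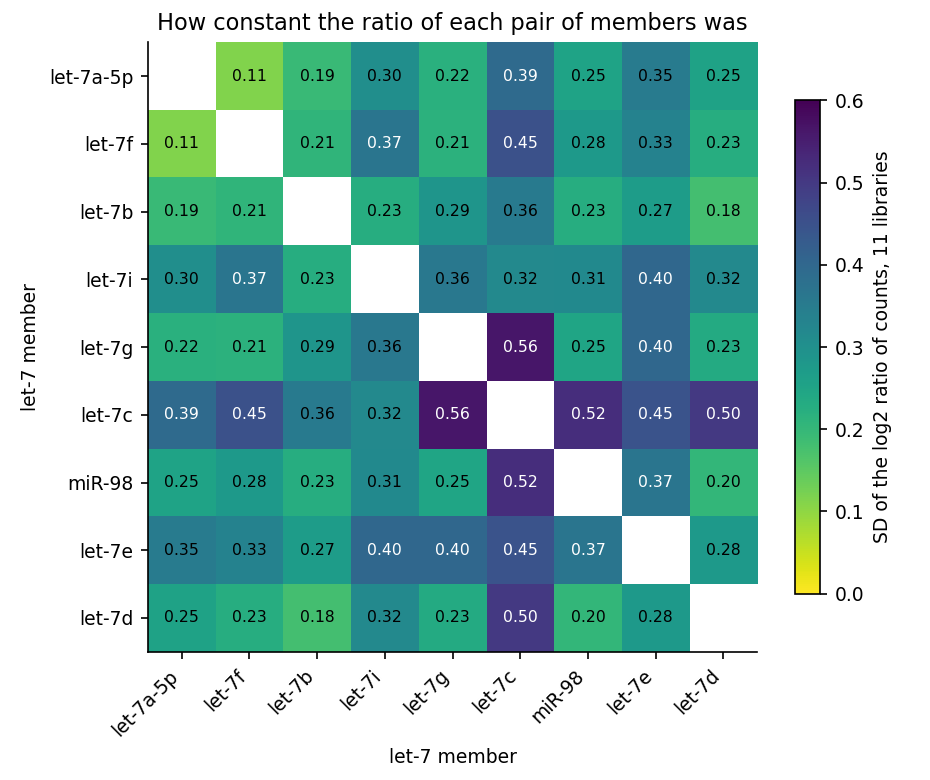
SD over the 11 libraries of the log2 ratio of counts for each pair of distinct members (colour and printed value, darker for less constant). The row and column of let-7c hold the highest values, up to 0.56 with let-7g, and the lowest is 0.11 for let-7a with let-7f.

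For 2 of the 36 ratios (5.56%) the values of the breeds did not overlap. Among the 6328 pairs of miRNAs described above, which include pairs with members, this held for 5.70%. It was thus about as frequent in the family as among pairs of abundant miRNAs as a whole. One was let-7f to let-7g, at 3.16 to 3.87 in Holstein and 4.13 to 4.84 in Montbéliarde. The other was let-7a to let-7c, at 11.62 to 13.61 in Holstein and 5.42 to 11.60 in Montbéliarde, where the gap between the breeds was narrow.

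The share of let-7c within the family was highest, and that of let-7g lowest, in the 2 libraries with the lowest share of epithelial miRNAs. In CNLX15, with the lowest epithelial share of 1.41%, let-7c supplied 7.62% of the family's reads and exceeded let-7g 1.38-fold. In CNLX21, with the next lowest epithelial share of 1.58%, let-7c supplied 5.84% and exceeded let-7g 1.06-fold. Both libraries also had the highest shares of stromal miRNAs (33.9% in CNLX15 and 32.9% in CNLX21) and of leukocyte miRNAs (0.345 and 0.344%). By normalized read count miR-143, miR-199a-5p, miR-199a-3p and miR-214 exceeded every Holstein library in both. miR-199b did so only in CNLX15, and miR-145 (4470 and 4111, Holstein up to 4785) in neither. CNLX15 had the lowest share of endothelial miRNAs (2.23%), but not the fewest normalized read counts of miR-126-5p or miR-126-3p. The erythroid shares of CNLX15 and CNLX21 were the lowest of all (0.242 and 0.243%), although miR-486 had its fewest normalized read counts in CNLX7 (21593). In the other 9 libraries, with epithelial shares of 2.23 to 4.64%, let-7c supplied 3.26 to 4.24% of the family. let-7g showed the opposite order. It supplied 5.49 to 6.23% of the family in the 5 Montbéliarde libraries with epithelial shares up to 3.25%. In the 5 Holstein libraries it supplied 7.19 to 8.08%. In CNLX15 and CNLX21 all 5 epithelial miRNAs had fewer normalized read counts than in any Holstein library. In CNLX17, CNLX19 and CNLX23 this held only for miR-141 (128233 to 213287, Holstein from 255751) and miR-200c (33511 to 41629, Holstein from 46933). There miR-200a, miR-200b and miR-429 lay within their Holstein ranges. The Montbéliarde library CNLX13, with an epithelial share of 4.44%, had 3.60% let-7c and 7.30% let-7g, both within the Holstein ranges of 3.26 to 3.77% and 7.19 to 8.08%. In bulk tissue, fewer cells of a type and less RNA per cell cannot be told apart, and shares within the family sum to 100, so 1 member rises as others fall.

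**Figure D5:**
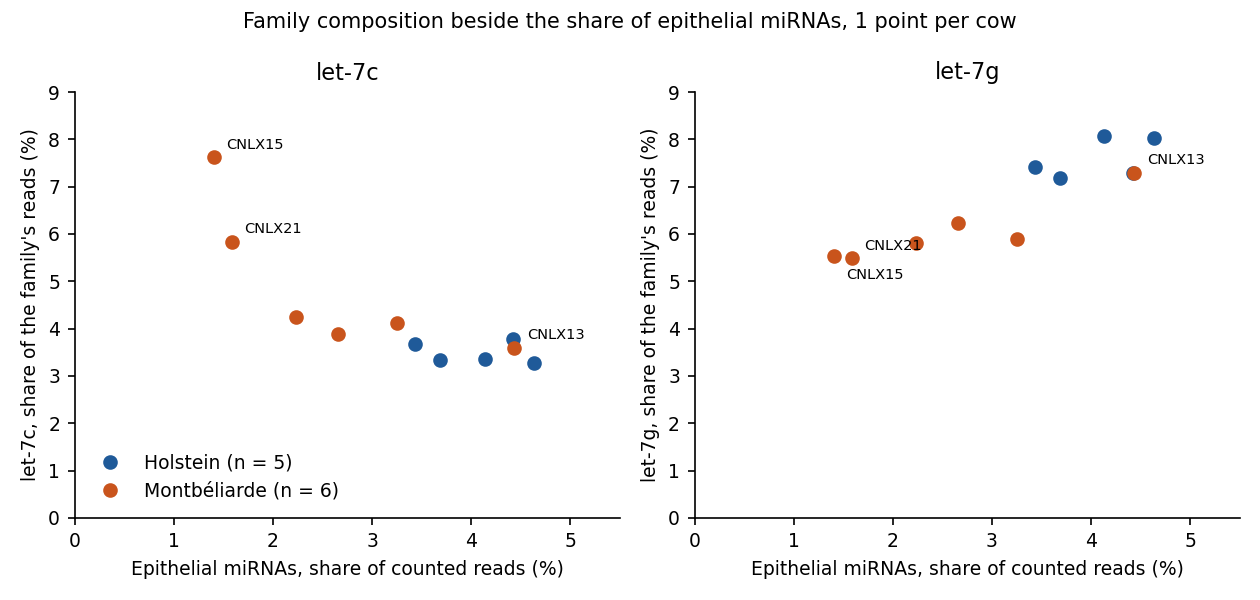
Share of the family's reads (%) taken by let-7c (left) and let-7g (right) against the summed share of 5 epithelial miRNAs among the counted reads (%), 1 point per cow. CNLX15 and CNLX21, at the lowest epithelial shares, hold the highest let-7c shares of 7.62 and 5.84%, and the Montbéliarde library CNLX13 lies among the Holstein points in both panels.

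In alternatives added after the data were seen, the log2 fold change of let-7c was −0.10 with the log2 epithelial share as a covariate (edgeR adjusted p = 0.938), and 0.27 without CNLX15 and CNLX21 (edgeR adjusted p = 0.537). These are the Montbéliarde libraries with the most let-7c, so leaving them out had to lower the value, which bears on no link to the epithelial share. let-7g kept its sign, at −0.19 without these libraries (edgeR adjusted p = 0.700) and −0.27 with the covariate (edgeR adjusted p = 0.780). let-7i had a log2 fold change of −0.44 with the covariate (edgeR adjusted p = 0.478). Only CNLX13 of the Montbéliarde libraries reached the Holstein range of epithelial shares, so this covariate and breed went largely together. The fit can therefore hardly tell the 2 apart. With the covariate 39 of the 550 miRNAs tested had an unadjusted edgeR p of at most 0.05, beside 78 in the main fit. The part of cell composition in these values was not tested.

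The genes of the family lie in several places, and some are encoded next to miRNAs of other families. RefSeq lists 13 genes for let-7, miR-98 and miR-3596 on a bovine assembly that is newer than the authors' one. MIRLET7A-1, MIRLET7F-1 and MIRLET7D lie together, MIRLET7A-2 lies with MIR100 and MIR125B-1, and MIRLET7A-3 lies with MIRLET7B. MIRLET7C has MIR99A and MIR125B-2 as neighbours within 100000 bases, and MIRLET7E has MIR99B and MIR125A. MIR12038 near MIRLET7E, MIR2443 near MIRLET7B and MIR135A-1 near MIRLET7G were not examined here. The miR-99 and miR-100 miRNAs are known to target mTOR signalling, and miR-125 is the mammalian relative of the worm timer lin-4.

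The 5 neighbouring miRNAs examined had log2 fold changes above 0, as had 5 of the 9 members, let-7c among them, and 52.4% of all miRNAs tested. The log2 fold change was 0.99 for miR-100 (SE 0.28, edgeR adjusted p = 0.171), 0.82 for miR-99b (SE 0.26, edgeR adjusted p = 0.182), 0.48 for miR-99a-5p (SE 0.27, edgeR adjusted p = 0.405), 0.45 for miR-125b (SE 0.22, edgeR adjusted p = 0.358) and 0.38 for miR-125a (SE 0.17, edgeR adjusted p = 0.335). In edgeR 0 of the 5 were called, while DESeq2 called miR-100 (log2 fold change 1.0, DESeq2 adjusted p = 0.0423). The paper, which also used DESeq2, lists miR-100 as differing between the breeds. It measured miR-100 by RT-qPCR too, but does not name it among the miRNAs that showed the sequencing pattern. All 5 neighbouring miRNAs had their highest level in CNLX15 and their next highest in CNLX21, the libraries in which let-7c was highest as well. With the epithelial share as a covariate, which went largely with breed, the log2 fold change of miR-100 was 0.26. That of miR-99a-5p was −0.10 and that of miR-125b −0.03.

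Members did not keep a fixed ratio to the miRNAs of other families encoded beside them. Of these 6 ratios, those of let-7c had the lowest SDs, with 1.12 to 2.13 reads per read of miR-125b (SD of the log2 ratio 0.27) and 0.910 to 2.24 per read of miR-99a-5p (SD 0.39). let-7a ranged from 9.28 reads per read of miR-100 in CNLX15 to 56.3 in CNLX9 (SD 0.77), and let-7e from 0.0840 reads per read of miR-99b in CNLX21 to 0.408 in CNLX9 (SD 0.64). The SD was 0.48 for let-7a with miR-125b and 0.41 for let-7e with miR-125a. Within the family, let-7f ranged from 13.3 to 24.0 reads per read of miR-98 (SD 0.28). Since let-7a, let-7f and miR-125b each come from more than 1 gene, the ratios that include them do not belong to 1 transcript. This does not apply to the ratio of let-7c to miR-99a-5p or to the ratios of let-7e.

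The only passenger arm named as let-7 in the table was bta-let-7a-3p, the strand that is mostly discarded when the let-7a precursor is cut. It had 121 to 354 normalized read counts, with a median ratio of 876 reads of let-7a-5p per read of let-7a-3p. That ratio ran from 454 in CNLX3 to 1591 in CNLX15. The log2 fold change of let-7a-3p was −0.40 (SE 0.23, edgeR adjusted p = 0.412).

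Outside the family, the miRNAs whose levels over the 11 libraries were most like the family sum were miR-339a, miR-210, miR-425-5p, miR-194 and miR-182. Likeness was the root mean square difference of centred log2 levels, which was 0.16 for miR-339a and miR-210, 0.17 for miR-425-5p and 0.18 for miR-194 and miR-182. The median over the 204 candidate miRNAs with a mean of at least 100 normalized read counts was 0.43.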

How the data were processed

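The authors trimmed adaptors, kept reads by length and counted miRNAs, known ones and predicted ones, using the tools ncPRO-seq and miRDeep2 with the bovine assembly btau5.0.1 and miRBase. They deposited raw read counts per miRNA and library, together with normalized counts, breed means and their DESeq2 comparison (version 1.18.1 in the submitters' notes), none of which were used here. Groups were the breeds in the labels. Per the paper's methods, each library came from a separate cow.

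Counts of miRNAs with at least 10 reads summed over 11 libraries (550 of 796) were tested with edgeR 4.0.16 in R 4.3.3 (TMM, robust quasi-likelihood, Benjamini-Hochberg adjustment). Alternatives were DESeq2 1.42.0, limma 3.58.1 with voom, an exact permutation test (two-sided, smallest possible p 0.00216) on log2(normalized count + 1), other scalings, filters and covariates, and each library left out. The fit was tested on simulated data. Named miRNAs were all members, other rows named bta-let-7, 5 neighbouring miRNAs, the 5 closest in level to the family sum, and cell type markers. The members and lists were chosen with earlier results of these data known. Gene neighbours came from RefSeq (ARS-UCD2.0), so no coordinates are given. Mature sequences were not analysed here.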

Additional observations from a re-analysis of the deposited data

Results flagged for a closer look

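In 2 of the 32 groups of libraries examined, 1 library lay farther from the others than Dixon's 95% limit allows, and chance gives about 1 in 20. The normalized read count of let-7c was 13298 in the Holstein library CNLX3, below the other Holstein cows (the gap was 0.730 of the range, limit 0.71). The normalized read count of let-7e was 3560 in the Holstein library CNLX9, above the other Holstein cows (the gap was 0.734 of the range, limit 0.71).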

How the results depend on the processing

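No member was called under any of the 23 alternatives, of which 11 called no miRNA at all. The log2 fold changes of let-7d, let-7e, let-7f, let-7g and miR-98 kept their sign in all 23. The signs of let-7a and let-7i, which were near 0 in the main fit, turned in several settings. let-7a was −0.0027 with limma and −0.015 without the filter, and −0.030 to 0.12 when single libraries were left out. let-7i was 0.025 with a mean of at least 100 counts, 0.016 with copied rows removed, 0.13 with the library total as a covariate, and −0.091 to 0.075 when single libraries were left out. With the epithelial share as a covariate, added after the data were seen, signs turned also where the main value was not near 0. let-7a was −0.13 and let-7b −0.077 with it. let-7c was −0.10 (main fit 0.51), let-7a-3p 0.059 (main fit −0.40), miR-99a-5p −0.10 (main fit 0.48) and miR-125b −0.030 (main fit 0.45). Epithelial share and breed went largely together, and the cause was not tested. The ratio of the breed means of the family share, Montbéliarde over Holstein, was 0.942 to 1.05 over its 15 alternatives, which did not include the epithelial share or the removal of CNLX15 and CNLX21 together. The order of members by mean held when any library was left out, and 7 of 8 neighbouring pairs kept it by the median. No paired analysis was possible, because the breeds are separate cows and the labels pair none of them. The spread between 5 and 6 cows, not depth, limits precision.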

Other observations

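let-7c was compared with the miRNAs outside the family in the same way as the family sum, a choice made after its values were seen. The miRNAs closest to it over the 11 libraries were miR-221, miR-222 and miR-28, each with a root mean square difference of centred log2 levels of 0.22, followed by miR-125a and miR-93 at 0.23. The median over the 204 candidates was 0.51. miR-221 and miR-222 are encoded together and are known to be abundant in endothelial cells. The summed share of the listed endothelial miRNAs was lowest (2.23%) in CNLX15, the library with the most let-7c. Their normalized read counts were not lowest there. miR-126-5p had 234599 in CNLX15 and 217698 in CNLX23, and miR-126-3p had 19623 in CNLX15 and 19244 in CNLX21. miR-125a is encoded beside let-7e rather than let-7c. These values are a description without a test.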
